A study of Mus musculus with 6 samples.

Results

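The glucocorticoid receptor gene Nr3c1, the hormone-activating enzyme gene Hsd11b1 and 8 established direct targets of the receptor were followed in bulk RNA-seq of interscapular brown fat. The members were the rows of the expression table with the symbols Nr3c1, Hsd11b1, Tsc22d3, Fkbp5, Zbtb16, Il1r2, Slc10a6, Per1, Klf9 and Sgk1, 10 of the 19241 genes listed. All 10 cleared the filter on low values (average FPKM of 0.5 or more across the 6 libraries) and were among the 13331 genes tested. FPKM is a transcript level scaled to transcript length and library size. The symbols were chosen by known biology with the KO and WT levels of these same libraries already in view, so the differences of the 10 genes are given as a description, with no test.

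The libraries came from the total interscapular depot of newborn mice. The 3 WT libraries are from mice with a floxed Fstl1 gene, and the 3 KO libraries are from mice in which Fstl1, the gene of the secreted glycoprotein follistatin-like 1, was deleted in the Myf5 lineage. Myf5 marks precursors of skeletal muscle as well as of interscapular brown adipocytes, so deletion in this lineage is not limited to fat. The labels name no Cre line, strain, sex or pooling, and do not say that the libraries are separate animals, so p-values measure only the spread between these libraries. The study's title asks about atrophy of the tissue when this lineage lacks Fstl1.

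Glucocorticoids enter the cell and bind the receptor, which is held in the cytoplasm by heat shock protein chaperones until the hormone arrives and then acts in the nucleus on DNA elements and other transcription factors. Hsd11b1 regenerates active corticosterone from its inert 11-dehydro form inside the cell, and Hsd11b2 does the reverse. Many targets feed back on the pathway or carry its effects on inflammation, metabolism and the clock, and in rodent brown fat glucocorticoids are known to lower thermogenic gene expression. The level of hormone was not measured in these libraries.

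Fstl1 was at 54.4 to 130.04 FPKM in WT and 7.93 to 13.1 FPKM in KO, so the targeted gene followed the labels. Brown adipocyte markers were present in all 6 libraries, with Ucp1, the uncoupling protein, at 4366 to 6255 FPKM in WT and 1695 to 3592 FPKM in KO (limma, log2 difference −1.08, SE 0.28, adjusted p 0.0804). Every KO library held transcripts of 4 Y-linked genes (KO means 8.09 to 92.2 FPKM, no WT value above 0.23 FPKM) and every WT library held Xist (44.8 to 85.5 FPKM, against at most 0.92 FPKM in KO), so genotype and sex cannot be told apart in any difference below. WT replicate 3 stood apart in hemoglobin transcripts, with 2.57% of its summed FPKM against 0.607% to 0.970% elsewhere. KO replicate 1 stood apart in skeletal muscle transcripts, with a sum over 8 markers of 296 FPKM against 1181 to 1734 FPKM in the other 5 libraries. In bulk tissue, fewer cells of a type and less RNA per cell cannot be told apart.

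The receptor itself differed little. Nr3c1 (Entrez gene 14815) had levels of 27.3, 24.3 and 18.5 FPKM in the WT libraries and of 21.8, 23.8 and 17.8 FPKM in the KO libraries, in the order of replicates 1, 2 and 3, which is kept throughout. Gene positions below are RefSeq gene bounds in GRCm38.p6, the assembly of the mm10 build. The groups overlapped, and replicate 3 was the lowest library in both. The means were 23.4 ± 4.47 and 21.1 ± 3.06 FPKM (SD, n = 3 each), a log2 difference, KO minus WT, of −0.13 (SE 0.18) on the log2(FPKM + 1) scale. This scale and direction are used for every log2 difference here, and a pseudocount of 1 understates the change of low genes. The 3 genes whose log2 levels followed Nr3c1 most closely over the 6 libraries, among 8373 genes averaging 5 FPKM or more, were Gmfb (Pearson r 0.991), Mcm3ap (0.991) and Slc33a1 (0.989). With 6 libraries 54 genes reached an r of 0.95, so such likeness is a description only.

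Hsd11b1 (15483, chr1:193221640-193264045) was at 5.65, 4.77 and 7.71 FPKM (WT) and 9.49, 8.92 and 5.17 FPKM (KO). KO replicates 1 and 2 lay above every WT library and KO replicate 3 lay among them. The means were 6.04 ± 1.51 and 7.86 ± 2.35 FPKM (SD, n = 3 each), with a log2 difference of 0.31 (SE 0.24). Its opposite, Hsd11b2, was near the bottom of the measurable range at 0.49, 1.17 and 0.78 FPKM in the WT libraries, against 0.20, 0.40 and 0.44 FPKM in the KO libraries. H6pd, which supplies the NADPH that Hsd11b1 uses, was at 9.15 ± 2.52 FPKM in WT and 10.4 ± 3.88 FPKM in KO (SD, n = 3 each). Nr3c2, the mineralocorticoid receptor, which also binds corticosterone, was at 1.39 ± 0.555 and 0.927 ± 0.341 FPKM. None of these 3 passed the threshold (limma, adjusted p 0.245 for Hsd11b2, 0.811 for H6pd and 0.463 for Nr3c2). Per unit length, Nr3c1 transcripts were 18.1 ± 5.36 times as abundant as Nr3c2 in WT and 25.3 ± 10.4 times in KO (SD, n = 3 each).

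In 7 of the 8 targets every KO library was higher than every WT library, and in the eighth, Sgk1, every KO library was lower. Over all genes tested, KO lay above WT without overlap in 13.6% and below it in 11.4%, 24.9% in either direction. Of the 10 members 4 (Tsc22d3, Il1r2, Slc10a6 and Per1) had an adjusted p under 0.05 in the fit over all genes, which called 2.21% of genes tested, 1.21% as higher in KO. Because these values were in view when the genes were chosen, nothing is read from either count, and the second was 1 without WT replicate 2, 1 without WT replicate 3 and 0 without any filter. The median log2 difference of the 10 was 1.04, against 0.01 over all genes tested.

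**Figure D1:**
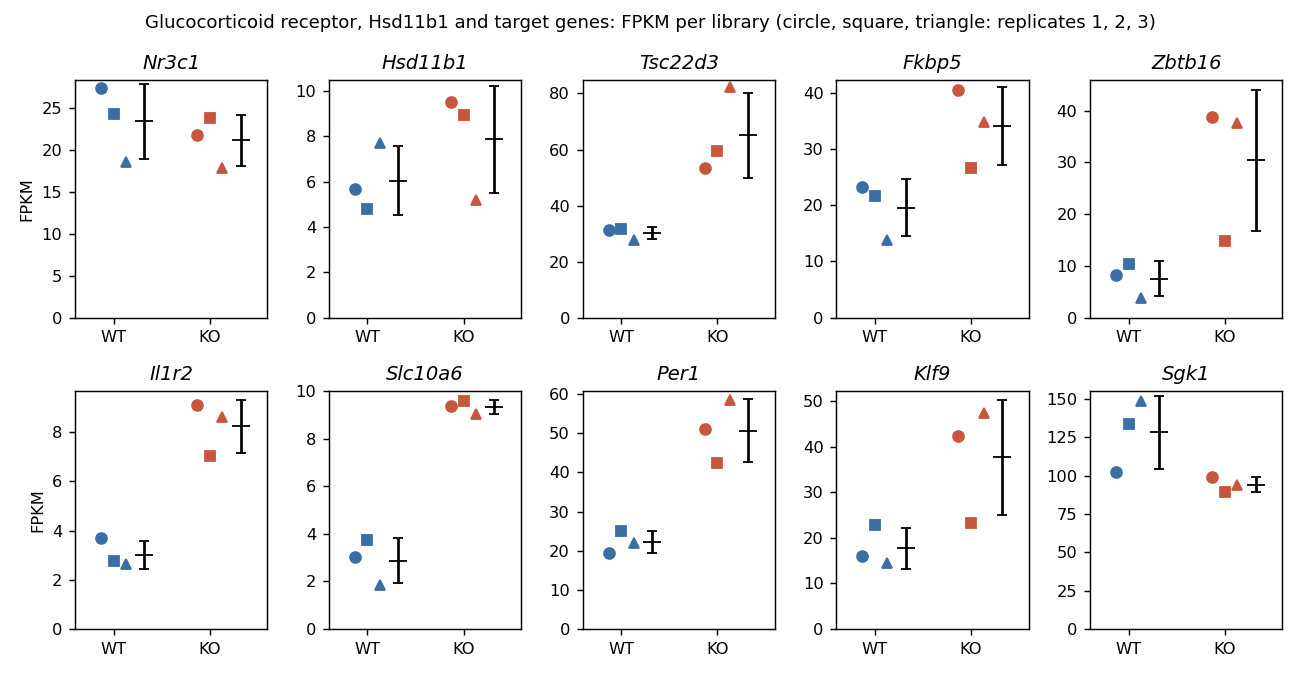
FPKM (vertical axes, each starting at 0) of the receptor, Hsd11b1 and the 8 targets in each WT (blue) and KO (red) library, with group mean and SD in black. KO and WT do not overlap for any target, with Sgk1 alone among the 8 lower in KO, and they overlap for Nr3c1 and Hsd11b1.

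The 2 targets that act back on hormone signalling or carry its anti-inflammatory effect were both higher in KO. Tsc22d3 (14605, chrX:140539528-140600522), which encodes the glucocorticoid-induced leucine zipper protein GILZ, was at 31.3, 31.8 and 27.5 FPKM (WT) and 53.5, 59.5 and 82.2 FPKM (KO). The WT libraries lay close together and the lowest KO library was 1.68 times the highest WT library. The means were 30.2 ± 2.31 and 65.0 ± 15.1 FPKM (SD, n = 3 each), a log2 difference of 1.06 (SE 0.18). Tsc22d3 lies on the X chromosome, and KO lay above WT without overlap in 9.89% of the 455 X-linked genes tested and in 13.7% of the 12848 autosomal ones. Fkbp5 (14229, chr17:28398753-28486149), an immunophilin that sits in the receptor's chaperone complex and lowers its affinity for hormone, was at 23.3, 21.6 and 13.8 FPKM in the WT libraries, against 40.5, 26.7 and 34.8 FPKM in the KO libraries. Its groups came close: the lowest KO library was 1.15 times the highest WT library. The means were 19.6 ± 5.06 and 34.0 ± 6.93 FPKM (SD, n = 3 each), with a log2 difference of 0.78 (SE 0.23). Without WT replicate 3, its lowest library, the difference was 0.56, and without WT replicate 3 and KO replicate 1 together it was 0.43. Fkbp4, the related immunophilin that favours receptor activity, was at 21.0, 35.5 and 29.0 FPKM (WT) and 22.4, 20.5 and 19.8 FPKM (KO) (limma, adjusted p 0.298; named after its values were seen), and the ratio of Fkbp5 to Fkbp4 was 0.731 ± 0.335 in WT and 1.62 ± 0.279 in KO (SD, n = 3 each).

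Among the transcriptional regulators, Zbtb16 (235320, chr9:48651797-48836225) showed the largest log2 difference of the 10 genes and also the widest ratio of highest to lowest KO library, 2.63. Zbtb16 encodes the zinc finger repressor PLZF. It was at 8.30, 10.4 and 3.77 FPKM in the WT libraries, against 38.8, 14.7 and 37.7 FPKM in the KO libraries. KO replicate 2 lay far below the other KO libraries, at 1.41 times the highest WT library. The means were 7.50 ± 3.40 and 30.4 ± 13.6 FPKM (SD, n = 3 each), 4.06-fold higher in KO, with a log2 difference of 1.86 (SE 0.41) that ran from 1.49 without WT replicate 3 to 2.30 without KO replicate 2. Klf9 (16601, chr19:23141226-23168129), a Krüppel-like factor also induced by thyroid hormone and linked to the clock, was at 16.0, 22.9 and 14.4 FPKM (WT) and 42.4, 23.3 and 47.3 FPKM (KO). Here KO replicate 2 was only just above WT replicate 2. The means were 17.7 ± 4.51 and 37.7 ± 12.7 FPKM (SD, n = 3 each), with a log2 difference of 1.01 (SE 0.27). Per1 (18626, chr11:69095108-69109965), a repressor in the core clock, was at 19.4, 25.0 and 22.0 FPKM in the WT libraries, against 51.2, 42.4 and 58.6 FPKM in the KO libraries. The groups were well apart, the lowest KO library being 1.69 times the highest WT library. Its means were 22.1 ± 2.81 and 50.7 ± 8.11 FPKM (SD, n = 3 each), 2.29-fold higher in KO, with a log2 difference of 1.16 (SE 0.17).

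The 2 targets at the cell surface, the least abundant of the 8, had the tightest KO values of those higher in KO. Il1r2 (16178, chr1:40084692-40125230) encodes the decoy receptor that binds interleukin-1 without signalling. It was at 3.68, 2.75 and 2.63 FPKM (WT) and 9.10, 7.04 and 8.62 FPKM (KO). The lowest KO library was 1.91 times the highest WT library. The means were 3.02 ± 0.575 and 8.25 ± 1.08 FPKM (SD, n = 3 each), 2.73-fold higher in KO, with a log2 difference of 1.21 (SE 0.17). Slc10a6 (75750, chr5:103605711-103629403), a sodium-coupled transporter of sulfated steroids, was at 3.03, 3.74 and 1.87 FPKM in the WT libraries, against 9.37, 9.61 and 9.03 FPKM in the KO libraries. The 3 KO libraries differed by a factor of 1.06 at most, while the WT libraries were less even. The means were 2.88 ± 0.944 and 9.34 ± 0.291 FPKM (SD, n = 3 each), 3.24-fold higher in KO, with a log2 difference of 1.44 (SE 0.19). At the estimated depth of 13900000 to 15100000 reads per library, the lowest values of Il1r2 and Slc10a6 correspond to about 54.0 and 58.2 reads.

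Sgk1 (20393, chr10:21882184-21999903), the serum- and glucocorticoid-regulated kinase, which controls ion channels and transporters, was the most abundant of the 10 genes and the one target lower in KO. It was at 102, 134 and 149 FPKM (WT) and 99.1, 89.2 and 94.0 FPKM (KO). The groups stood apart by a small margin, since WT replicate 1 was only slightly above KO replicate 1. The means were 128 ± 23.8 and 94.1 ± 4.95 FPKM (SD, n = 3 each), with a log2 difference of −0.43 (SE 0.16) that ran from −0.58 without WT replicate 1 to −0.31 without WT replicate 3. In size it lay inside the middle 90% of genes tested (−0.55 to 0.60), as did Nr3c1 and Hsd11b1, whereas the other 7 targets lay above that range. Without WT replicate 1 Sgk1 lay just below that range, which comes from the fit to all libraries and was not computed anew.

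**Figure D2:**
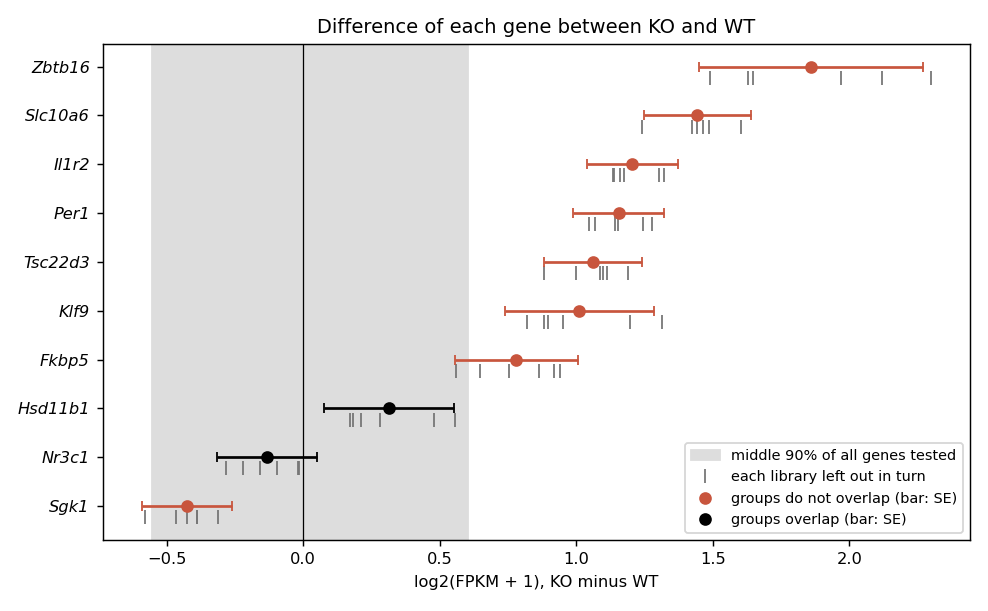
Log2 difference, KO minus WT, of each gene (horizontal axis; bar, SE), with grey ticks for the value when each library was left out in turn and a grey band for the middle 90% of all genes tested. In all 10 genes the ticks stay on 1 side of 0. Fkbp5 without WT replicate 3 (0.56) enters the band, and Sgk1 without WT replicate 1 (−0.58) leaves it. The band comes from the fit to all 6 libraries and was not drawn anew for each library left out.

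The windows of 250 bases before annotated transcript starts were read for 8 of the 10 genes, 16 windows in all, from the RefSeq promoter table of GRCm38.p6. Nr3c1 and Zbtb16 have no entry. The full palindromic glucocorticoid response element, AGAACA and TGTTCT with any 3 bases between them, occurred in 1 of the 13280 such windows of tested genes, and that window belongs to Sgk1, the target that was lower in KO, at 1 of its 6 starts (position −189 from the start). A looser form of the element, GNACA and TGTNC with any 3 bases between them, was in 0.294% of windows; among the members it was in this Sgk1 window, where it lies inside the full element, and in the window of Slc10a6 (position −163). Both forms read the same on either strand. These windows are shown because they carry the receptor's own motif, with the matched element in capitals. The 2 windows of Per1 are shown for letters that match motifs of clock and cyclic AMP inputs, in capitals there. The half-site TGACG is in both, and the E-box CACGTG is in the first only. The Sgk1 window shown also holds an E-box, left in lower case. Each sequence is written along the gene's own strand.
Sgk1, chr10:21993640-21993889, plus strand: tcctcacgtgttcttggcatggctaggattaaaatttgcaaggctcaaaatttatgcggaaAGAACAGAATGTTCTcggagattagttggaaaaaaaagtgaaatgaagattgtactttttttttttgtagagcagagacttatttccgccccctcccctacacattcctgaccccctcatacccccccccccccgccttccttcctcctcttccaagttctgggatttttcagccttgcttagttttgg
Slc10a6, chr5:103629404-103629653, minus strand: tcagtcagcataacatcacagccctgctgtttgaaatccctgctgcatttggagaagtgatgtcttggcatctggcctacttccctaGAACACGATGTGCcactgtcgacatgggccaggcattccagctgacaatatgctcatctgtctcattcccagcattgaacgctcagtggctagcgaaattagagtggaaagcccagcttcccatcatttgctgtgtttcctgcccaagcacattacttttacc
Per1, chr11:69098699-69098948, plus strand: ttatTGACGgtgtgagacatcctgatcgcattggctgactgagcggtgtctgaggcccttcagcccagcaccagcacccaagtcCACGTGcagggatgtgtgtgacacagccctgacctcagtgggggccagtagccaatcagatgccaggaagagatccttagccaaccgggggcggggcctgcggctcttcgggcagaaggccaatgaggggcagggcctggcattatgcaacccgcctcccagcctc
Per1, chr11:69099902-69100151, plus strand: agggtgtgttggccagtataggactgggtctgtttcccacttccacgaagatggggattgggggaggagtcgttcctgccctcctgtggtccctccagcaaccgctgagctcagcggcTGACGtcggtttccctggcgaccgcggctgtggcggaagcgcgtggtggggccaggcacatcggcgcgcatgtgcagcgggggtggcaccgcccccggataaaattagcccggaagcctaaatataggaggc

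The half-site TGTTCT, searched on both strands and contained in the full element, was in windows of 3 of the 8 genes (Sgk1, Slc10a6 and Tsc22d3) and in those of 13.2% of 10439 tested genes with an entry. The E-box CACGTG was in windows of 4 of the 8 (Fkbp5, Il1r2, Per1 and Sgk1), against 9.72% of genes, and TGACG on either strand in those of 4 (Klf9, Per1, Sgk1 and Tsc22d3), against 30.1%. Sgk1, Tsc22d3 and Per1 have 6, 3 and 2 windows, which gives them more chances of a match. These are matches of letters in a short window, not sites of binding, and windows with no match say nothing about elements elsewhere.

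The libraries did not move together in one order across the targets. Among the 7 targets higher in KO, KO replicate 2 was the lowest KO library for 5 (Fkbp5, Zbtb16, Il1r2, Per1 and Klf9), and KO replicates 1 and 3 were each the highest for 3. WT replicate 3, the library with the most hemoglobin transcripts, was the lowest WT library for 6 of the 7, all but Per1. Leaving it out lowered the log2 difference of Zbtb16 to 1.49, of Slc10a6 to 1.24 and of Il1r2 to 1.14, and all 7 stayed higher in KO. The part of blood or muscle content in these differences was not tested beyond that.

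**Figure D3:**
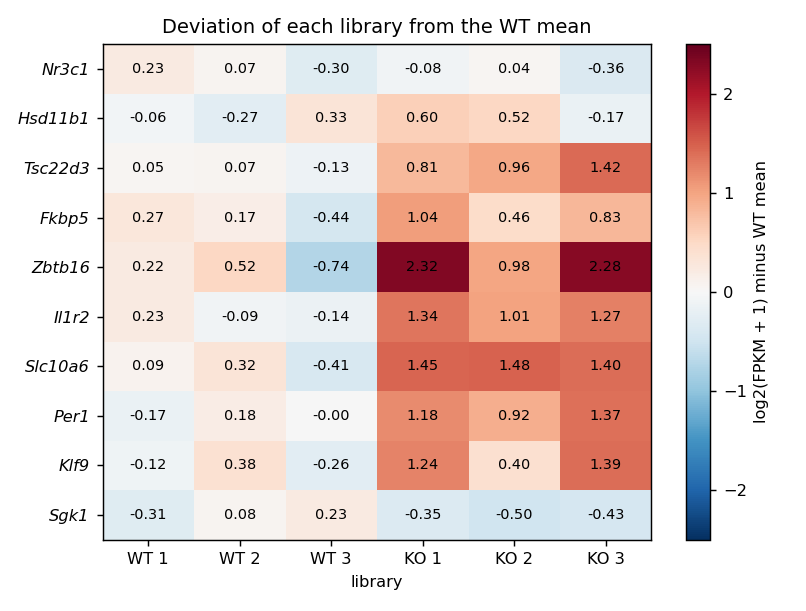
Deviation of each library from the WT mean, in log2(FPKM + 1), for the 10 genes (rows) in the 6 libraries (columns), with the value printed in each cell. KO replicate 2 is paler than the other KO libraries for Zbtb16 (0.98 against 2.32 and 2.28) and Klf9 (0.40 against 1.24 and 1.39), and the 3 KO values of Slc10a6 are 1.40 to 1.48.

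Other genes known to be induced by glucocorticoids were read as a list of 37 symbols that holds none of the 10, of which 35 could be tested. This list and those below were also chosen with earlier results of these data known, so their counts are given as a description. In that list 3 rose past the adjusted threshold and 0 fell, against 1.21% and 1.01% of all genes tested. They were Klf15, Sesn1 and Nfkbia. Klf15, a Krüppel-like factor of amino acid and lipid metabolism, was at 2.56, 4.71 and 2.57 FPKM in the WT libraries, against 15.7, 11.2 and 40.6 FPKM in the KO libraries (limma, log2 difference 2.29, SE 0.41, adjusted p 0.0337). Sesn1, a stress-responsive inhibitor of mTORC1 signalling, went from 9.73 ± 1.22 to 22.4 ± 6.63 FPKM (SD, n = 3 each; limma, log2 difference 1.09, SE 0.21, adjusted p 0.0391). Nfkbia, which encodes the NF-kappaB inhibitor IkappaB-alpha, went from 20.1 ± 5.51 to 43.4 ± 6.35 FPKM (SD, n = 3 each; limma, log2 difference 1.10, SE 0.21, adjusted p 0.0391). Not all of these calls held when 1 library was left out. Of these 3 genes 0 passed without WT replicate 2, WT replicate 3 or KO replicate 1. Only Nfkbia passed without WT replicate 1, and only Klf15 passed without KO replicate 2 or KO replicate 3. The count over all genes moved as well, from 295 to between 31 (without WT replicate 3) and 370 (without WT replicate 1). The log2 differences of the 3 genes kept their sign in all 15 other settings.

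Across the same list 27 genes were higher and 8 lower in KO, with a median log2 difference of 0.34, and KO lay above WT without overlap in 14 and below it in 4, against 13.6% and 11.4% of all genes tested. An unadjusted p under 0.05 was found for 20 of the 35, against 19.2% of all genes tested. Several of the 14 had a wide KO range set by KO replicate 3, which was the highest KO library in 13 of them. Rgs2, a regulator of G protein signalling, was at 11.1, 10.9 and 9.75 FPKM (WT) and 24.6, 77.9 and 238 FPKM (KO) (limma, log2 difference 2.76, adjusted p 0.0625). Lpin1, a phosphatidate phosphatase, was at 29.0 to 34.8 FPKM in WT and 44.3 to 158 FPKM in KO (limma, adjusted p 0.0918), and Fam107a at 1.51 to 3.25 and 4.53 to 8.25 FPKM (limma, adjusted p 0.0626). Lower in KO instead, Cebpb, an adipogenic transcription factor, was at 45.5 to 59.6 FPKM in WT and 20.7 to 38.4 FPKM in KO (limma, adjusted p 0.0674). Dusp1, the phosphatase that silences MAP kinases and a classical receptor target, was at 30.8 to 44.4 FPKM in WT and 27.7 to 28.2 FPKM in KO (limma, adjusted p 0.231). Rgs2, Lpin1, Fam107a, Cebpb and Dusp1 were named after their values were seen. Like Sgk1, Bcl6, Cebpb, Dusp1 and Sdpr had every KO library below every WT library, without passing the threshold (Bcl6 and Sdpr likewise named after their values were seen).

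The list of ligand-handling enzymes, receptor chaperones and coregulators had 24 tested genes, with a median log2 difference of −0.02. Of these 0 passed in limma and 5 had an unadjusted p under 0.05 (19.2% of all genes tested had one). KO lay above WT without overlap in 5 of the 24 and below it in 6, against 13.6% and 11.4% of all genes tested. The 3 genes named next did not overlap, Abcb1b being higher and Stip1 and Hspa8 lower in KO. The 3 with the smallest p were Stip1, an Hsp90 co-chaperone, at 41.9 ± 1.33 in WT and 30.3 ± 2.43 FPKM in KO (limma, adjusted p 0.106), the drug and steroid exporter gene Abcb1b, at 1.11 ± 0.246 and 2.08 ± 0.410 FPKM (limma, adjusted p 0.124), and the chaperone Hspa8, at 1253 ± 112 and 984 ± 44.8 FPKM (limma, adjusted p 0.214; SD, n = 3 each).

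Genes known to be repressed by glucocorticoids differed in both directions. Of 16 symbols 11 could be tested, 5 higher and 6 lower in KO, with a median log2 difference of −0.14. KO lay above WT without overlap in 4 and below it in 2 (13.6% and 11.4% of all genes tested), and 7 of the 11 had an unadjusted p under 0.05 (19.2% of all genes tested). The interleukin gene Il6 and 4 others (Il1a, Tnf, Ptgs2 and Mmp13) stayed below 0.5 FPKM in every library. Of the 11, 1 passed: Ptx3, a secreted pattern recognition protein of inflammation, rose from 0.96, 2.25 and 1.01 FPKM to 4.60, 3.47 and 5.98 FPKM (limma, log2 difference 1.26, SE 0.24, adjusted p 0.0410). Its adjusted p was 0.0264 to 0.139 over 14 other settings of filter, scaling, model and libraries, and it missed the threshold in 8 of them, among them those without WT replicate 1, 2 or 3 and without KO replicate 1, 2 or 3. The chemokine genes Cxcl10 (0.38 ± 0.168 and 1.85 ± 0.898 FPKM in WT and KO; limma, adjusted p 0.0764) and Ccl5 (0.21 ± 0.0693 and 0.81 ± 0.19 FPKM; limma, adjusted p 0.0820; SD, n = 3 each) did not pass.

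Per1 and Klf9 also answer to the clock, thyroid hormone and acute stimuli, so genes of those inputs were read beside them. Of 17 clock genes 6 had an unadjusted p under 0.05 (19.2% of all genes tested) and 1 passed the adjusted threshold (2.21% of all genes tested): Nr1d2, which encodes the heme receptor REV-ERB-beta, rose from 9.81, 8.59 and 8.77 FPKM to 26.4, 31.4 and 37.1 FPKM (limma, log2 difference 1.69, SE 0.16, adjusted p 0.00410), and it passed in all 15 other settings (adjusted p 0.00137 to 0.0307), though not without WT replicate 3 and KO replicate 1 together (adjusted p 0.0523). Its relative Nr1d1 (7.31 ± 2.78 and 14.7 ± 6.38 FPKM; limma, adjusted p 0.191) and Rora (2.28 ± 0.376 and 3.51 ± 0.719 FPKM; limma, adjusted p 0.195; SD, n = 3 each) did not pass. Per2, the closest relative of Per1, was at 6.45 to 11.1 FPKM in WT and 9.05 to 12.4 FPKM in KO, so the groups overlapped (named after its values were seen). The clock list had a median log2 difference of 0.18, with 12 genes higher and 5 lower. Without overlap, KO lay above WT in 3 of the 17 and below it in 1 (13.6% and 11.4% of all genes tested). The 3 were Nr1d2, Nr1d1 and Rora.

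Of 17 immediate-early genes tested 1 rose and 1 fell, against 1.21% and 1.01% of all genes tested, and 8 had an unadjusted p under 0.05, against 19.2%. Fos, a subunit of the AP-1 transcription factor, fell from 9.04, 10.4 and 9.37 FPKM to 2.71, 3.82 and 2.84 FPKM (limma, log2 difference −1.37, SE 0.16, adjusted p 0.00841) and passed in the same 15 settings, though not without WT replicate 3 and KO replicate 1 together (adjusted p 0.115). Nr4a3, an orphan nuclear receptor, rose from 7.24, 1.19 and 5.57 FPKM to 31.9, 17.9 and 39.3 FPKM (limma, log2 difference 2.57, SE 0.47, adjusted p 0.0369) and missed the threshold in 7 of 15 other settings, among them those without WT replicate 2 or 3 or KO replicate 1, 2 or 3. Fosl2 was at 5.30 ± 1.16 and 11.7 ± 5.30 FPKM (SD, n = 3 each; limma, adjusted p 0.106). The list's median log2 difference was 0.03, with 9 genes higher and 8 lower. KO lay above WT without overlap in 3 of the 17 and below it in 4, against 13.6% and 11.4% of all genes tested.

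Among 8 tested genes of thyroid hormone handling and response, Slc16a10, a transporter of aromatic amino acids and thyroid hormone, fell from 14.7, 11.1 and 12.2 FPKM to 6.88, 6.30 and 5.18 FPKM (limma, log2 difference −0.94, SE 0.16, adjusted p 0.0324). It missed the threshold without WT replicate 2 or 3 and without KO replicate 1, 2 or 3. The deiodinase gene Dio2 (44.5 ± 16.2 and 37.2 ± 12.3 FPKM; limma, adjusted p 0.744) and Me1, the cytosolic malic enzyme gene (42.8 ± 10.3 and 32.9 ± 13.6 FPKM; limma, adjusted p 0.451; SD, n = 3 each), did not pass. The list's median log2 difference was −0.06, with 2 genes higher and 6 lower. Of the 8 genes 1 passed (2.21% of all genes tested) and 1 had an unadjusted p under 0.05 (19.2% of all genes tested). KO lay above WT without overlap in 0 and below it in 1, against 13.6% and 11.4% of all genes tested.

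**Figure D4:**
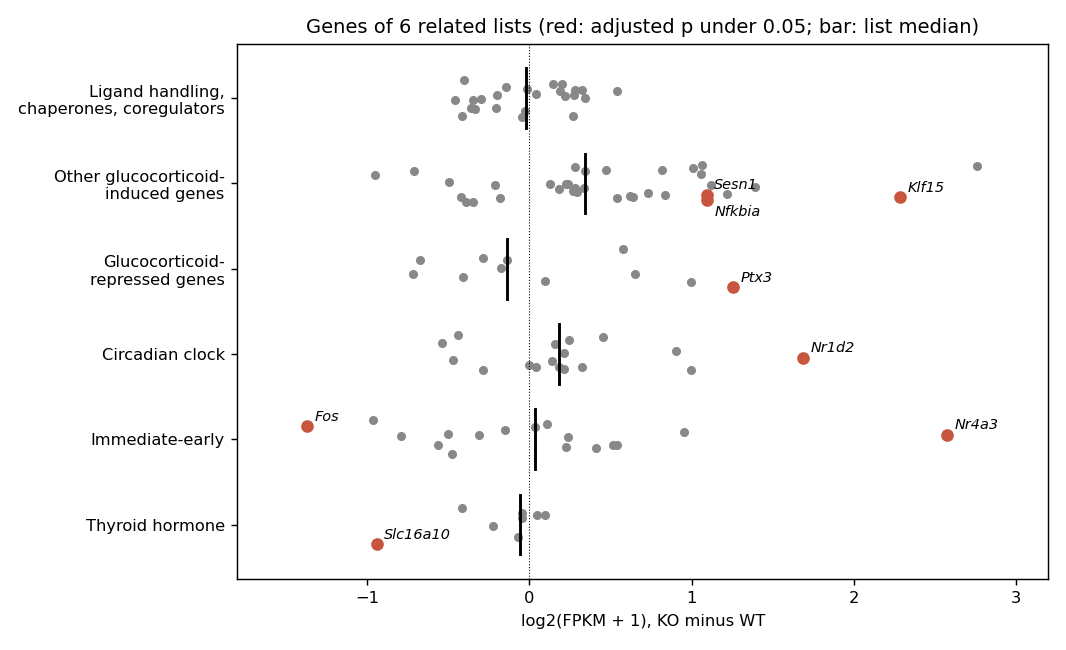
Log2 difference, KO minus WT, of each tested gene in 6 related lists (grey, not past an adjusted p of 0.05; red and named, past it; black bar, list median; vertical position within a list is arbitrary). The medians run from −0.14 for the repressed genes to 0.34 for the other induced genes.

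Il1r2 is abundant in neutrophils, so markers of the other cells of the depot were read beside it, with single markers named after their values were seen. Of 10 neutrophil markers tested 8 were higher in KO and 1 (Mmp8, 3.08 ± 1.02 to 6.70 ± 0.711 FPKM; SD, n = 3 each; limma, adjusted p 0.0483) passed, and the sum over the 11 listed was 155 to 242 FPKM in WT and 186 to 430 FPKM in KO. An unadjusted p under 0.05 was found for 4 of the 10. Over all genes tested 2.21% passed and 19.2% had an unadjusted p under 0.05. KO replicate 2 had the highest neutrophil sum, 430 FPKM, and the lowest Il1r2 of the KO libraries. S100a8 and S100a9 made up most of that sum (116 and 206 FPKM). KO lay above WT without overlap for 3 of the 10, Csf3r, Cxcr2 and Mmp8, against 13.6% of all genes tested. Among the KO libraries, Cxcr2 and Mmp8 were highest in replicate 1, as was Il1r2, and Csf3r was highest in replicate 2. All 8 macrophage markers were higher in KO, 3 of them without overlap (against 13.6% of all genes tested). In limma 0 of these 8 passed and 3 had an unadjusted p under 0.05. Their sums were 116 to 173 FPKM in WT and 160 to 221 FPKM in KO. The part of neutrophils and macrophages in the difference of Il1r2 was not tested. Lymphoid markers, read because Zbtb16 marks innate-like lymphocytes, summed to 2.35 to 2.82 FPKM in WT and 2.38 to 3.21 FPKM in KO over 10 genes, 9 of which averaged under 0.5 FPKM. Their part in the difference of Zbtb16 was not tested.

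Adipocyte markers summed to 18225 to 21505 FPKM in WT and 18038 to 20045 FPKM in KO, with 1 of 8 called (Plin1, lower in KO). Fabp4 made up most of these sums (14059 to 17389 FPKM in WT and 14000 to 15846 FPKM in KO). Of the 8 adipocyte markers 3 were higher and 5 lower in KO by log2 difference. The shares over all genes tested were 2.21% called and 19.2% at an unadjusted p under 0.05. Brown adipocyte markers summed to 7646 to 12427 and 6275 to 7899 FPKM, with 0 of 8 called in limma and 3 at an unadjusted p under 0.05. Every KO library was below every WT library for 2 of the 8, against 11.4% of all genes tested. These were Ucp1 and Prdm16, a regulator of brown fat identity (4.76 ± 0.574 and 2.19 ± 0.709 FPKM; SD, n = 3 each; limma, adjusted p 0.0519). The other brown marker at an unadjusted p under 0.05, Ppargc1a, was higher in KO, with overlapping groups (19.1 ± 3.98 and 28.1 ± 7.48 FPKM; SD, n = 3 each; limma, adjusted p 0.251). By log2 difference 3 of the 8 were higher and 5 lower in KO. For fibroblasts and preadipocytes the sums were 1373 to 1772 and 1417 to 2354 FPKM, with 1 of 8 called (Ly6a, higher in KO), and for endothelium 455 to 552 and 467 to 530 FPKM, with 0 of 6 called in limma and 0 at an unadjusted p under 0.05. The log2 difference was below 0 for all 8 muscle markers (Myh3 had a higher KO mean in FPKM, 16.3 against 13.7), with overlapping sums of 1181 to 1734 and 296 to 1590 FPKM and 0 called in limma (1 at an unadjusted p under 0.05). Erythroid sums were 3378 to 14389 and 3070 to 3956 FPKM, with 0 of 7 called in limma and 0 at an unadjusted p under 0.05. Epidermal markers were near 0 apart from Krt10, with Krt5, Krt14, Krt1, Lor and Dsp never above 0.5 FPKM.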

How the data were processed

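Expression was deposited by the authors as FPKM, a level scaled to transcript length and library size, per the file headers, rounded to 2 decimals. The submitters' processing notes name mm10, HISAT2 2.0.4, Bowtie2 2.2.5 and DESeq2 without roles; the counting tool, annotation and strand handling are not given in the sources used here. Columns were matched to the libraries by title. In GENCODE vM21 no exon of the 10 genes overlaps an exon of another gene.

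FPKM are not counts, so no count model was fitted. KO was compared with WT on log2(FPKM + 1) with limma 3.58.1 in R 4.3.3 (lmFit, eBayes with trend, no covariates) over 13331 genes averaging 0.5 FPKM or more, with Benjamini-Hochberg adjustment at 0.05. The fit was tested on simulated data. Steps between low FPKM values of single-transcript genes gave an estimated depth of 13900000 to 15100000 reads per library, with 75.8% to 81.0% of values within 0.2 of a whole read (38.6% to 43.1% with lengths shuffled); intervals were not drawn from it.

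The members and lists were chosen with earlier results of these data known. Named were the 10 members, Nr3c2, Hsd11b2 and H6pd, in each pathway list every gene past the threshold or, where fewer than 3 passed, the 3 with the smallest p, and the 3 genes most like Nr3c1; others are said to be named after their values were seen. Alternatives were a pseudocount of 0.1, no filter, a filter at 5 FPKM, 3 other scalings, eBayes without trend, robust eBayes, the replicate block and each library left out; leaving out WT replicate 3 and KO replicate 1 together was chosen after seeing the data. Figures were drawn with matplotlib 3.10.9.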

Additional observations from a re-analysis of the deposited data

How the results depend on the processing

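All 10 members kept the sign of their difference in the 15 settings tried and without WT replicate 3 and KO replicate 1 together. Of the members 4 had an adjusted p under 0.05. The count was 0 with no filter, 3 with the replicate block and 5 with a filter at 5 FPKM. That filter left 8374 genes in the test, of which 321 were called, against 295 of 13331 in the main fit. With 1 library left out 1 to 4 members had it (1 without WT replicate 2 and 1 without WT replicate 3). Without WT replicate 3 and KO replicate 1 together 0 had it. At a pseudocount of 0.1 the log2 differences of Il1r2 and Slc10a6 were 1.43 and 1.72.

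Over all genes 295 were called (161 higher, 134 lower in KO). This became 35 with no filter, 321 with a filter at 5 FPKM, 372 with robust eBayes and 167 with the replicate block. It was 31 (without WT replicate 3) to 370 (without WT replicate 1) when 1 library was left out, and 13 with the pair left out. With no filter 19241 genes enter the test. For the other induced genes the count of 3 became 0 with no filter, 5 (4 higher, 1 lower) with a filter at 5 FPKM, 0 to 2 with 1 library left out (the 2 without KO replicate 1 include none of the 3) and 0 with the pair left out. The repressed list's 1 became 0 with no filter, with a filter at 5 FPKM (which removes Ptx3), with the replicate block and with the pair left out, and 0 to 1 with 1 library left out. The immediate-early list's 2 became 1 with no filter, 1 with robust eBayes, 1 to 3 with 1 library left out and 0 with the pair left out. The thyroid list's 1 became 0 with no filter, 0 to 1 with 1 library left out and 0 with the pair left out, and the clock list's 1 became 0 with the pair left out. The chaperone list stayed at 0 in limma throughout. H6pd, which was not called, changed sign without WT replicate 1 (−0.015) and without KO replicate 3 (−0.112), in a range up to 0.353 (without KO replicate 2). The cause of these shifts was not tested.

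Both groups are numbered 1 to 3. Libraries with the same number deviated from the WT and KO averages with correlations of 0.068, 0.043 and 0.043 over genes, too low to treat equal numbers as pairs, and the block result above is given for that reason only here. Under every scaling the median log2 difference over all genes stayed within 0.1 of its main value.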
